A study of Mus musculus with 200 samples.

Results

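The comparison described here is between N2 mouse embryos that carried 1 CAST/EiJ (Cast) and 1 C57BL/6J (B6) copy of the transferrin gene, Trf, and N2 embryos that carried 2 B6 copies. Embryos were placed by the deposited genotype code at Trf, 0.5 for B6/Cast and 1.0 for B6/B6. Of 160 N2 embryos with labels, 154 had genotype codes, and at Trf 82 of these were B6/Cast and 72 were B6/B6. A somite number was recorded for 147 of them, 80 B6/Cast and 67 B6/B6, and these 147 embryos enter the expression comparisons.

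Every embryo was a whole embryo at embryonic day 11.5, freed of extra-embryonic tissue, and its mRNA was counted by 3SEQ, which sequences the 3′ ends of polyadenylated transcripts. N2 embryos came from B6 mothers mated to F1 fathers (89 genotyped embryos, 49 of them B6/Cast at Trf) or from F1 mothers mated to B6 fathers (65, with 33 B6/Cast). All N2 embryos therefore received one full B6 genome, and away from chromosome 9 the other genome was a mixture of B6 and Cast in both groups. The 16 F1 embryos, 8 from B6 mothers and 8 from Cast mothers, were B6/Cast at every autosomal gene. The 147 N2 embryos came from 29 litters on 14 lanes of 2 flowcells, so littermates are not independent families. Genotype codes had been inferred by the authors from the same reads, through SNP-covering reads smoothed along each chromosome, so the allele counts of N2 embryos at Trf are not independent of the grouping, whereas those of F1 embryos are.

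Transferrin is the iron carrier of plasma. It delivers ferric iron to cells through the transferrin receptor Tfrc, and the iron is released in endosomes, reduced and carried into the cytosol, stored in ferritin or taken to mitochondria for heme and iron-sulfur clusters. In the embryo Trf is made chiefly by visceral endoderm of the yolk sac and by hepatoblasts of the fetal liver, and red cell precursors take up most of the iron it carries.

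Depth and stage were compared first. Total reads on genes ranged from 245220 to 5370322 per N2 embryo (median 2292026), and the group means differed with a permutation p of 0.990. Somite number averaged 48.5 ± 3.04 (SD, n = 80) in B6/Cast and 49.2 ± 2.90 (n = 67) in B6/B6 embryos, a difference of -0.667 somites (permutation p = 0.187). B6/Cast embryos made up 53.3% of the genotyped embryos on flowcell 1 and 53.2% on flowcell 2. Levels are in RPM, the reads on a gene per 1000000 reads on all genes. The summed RPM of 7 erythroid markers ranged from 25770 to 164200 in B6/Cast and from 34020 to 171200 in B6/B6 embryos, that of 10 hepatoblast markers from 193 to 2422 and from 390 to 2246, and that of 6 macrophage markers from 103 to 433 and from 129 to 402. The sum of 6 trophoblast markers ran from 0 to 3.04 and from 0 to 3.99, with Prl2c2, Prl3d1, Psg21 and Ctsq at 0 throughout.

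One embryo went partly against its code. This B6/B6 embryo (53 somites, B6 mother, 514626 reads) had 22 Cast votes among 108 votes at Trf, or 20.4% (exact 95% binomial interval 13.2% to 29.2%, counting error only), where a vote is 1 SNP-covering read shared over its SNPs. The highest Cast share in the other 66 B6/B6 embryos was 2.56%. Other genes within 10 Mb of Trf held 6 Cast votes among 1921 in the same embryo, 0.312%. Without this embryo the Trf difference given next was -0.05 ± 0.08 in place of -0.06 ± 0.08.

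Trf, ENSMUSG00000032554.9 on the minus strand of mm9 chr9:103106331-103132774, was the 762nd most abundant gene by mean RPM. In B6/Cast embryos it ranged from 42.3 to 548 RPM with a median of 213, and in B6/B6 embryos from 75.4 to 596 RPM with a median of 235. The ranges overlapped almost fully, and the means were 230 ± 113 (SD, n = 80) and 249 ± 108 RPM (SD, n = 67). With lane and somite number in the model, the log2 difference of B6/Cast from B6/B6 was -0.06 ± 0.08 (SE), and edgeR's quasi-likelihood test gave an unadjusted p of 0.431 and, adjusted by Benjamini-Hochberg over 10040 genes, 1.00. The fitted B6/Cast level was 95.9% of the B6/B6 level, with a 95% interval from 86.5% to 106%. Permuting the genotypes 100000 times within lanes gave a two-sided p of 0.430, and within litters 0.474. In these bulk samples fewer cells of a type and less RNA per cell cannot be told apart.

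Trf rose with stage. Its log2(RPM + 1) rose by 0.14 ± 0.02 (SE) per somite with lane and genotype in a linear model, 1.10-fold per somite. Among embryos with at most 45 somites, 15 B6/Cast embryos averaged 134 ± 49.3 RPM and 6 B6/B6 embryos 221 ± 54.7 RPM. From 46 to 52 somites the order of the means turned, with 246 ± 108 RPM in 59 B6/Cast and 229 ± 91.1 RPM in 53 B6/B6 embryos. With at least 53 somites, 6 B6/Cast embryos averaged 307 ± 152 RPM and 8 B6/B6 embryos 403 ± 121 RPM. These means are not adjusted for lane or for stage within a bin. In the youngest bin B6/Cast embryos reached down to 42 somites and B6/B6 embryos to 44. In the oldest bin they reached up to 55 and 57 somites. The change of the genotype difference per somite, fitted over all embryos, was 0.05 ± 0.03 on the log2 scale (edgeR unadjusted p = 0.075).

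**Figure D1:**
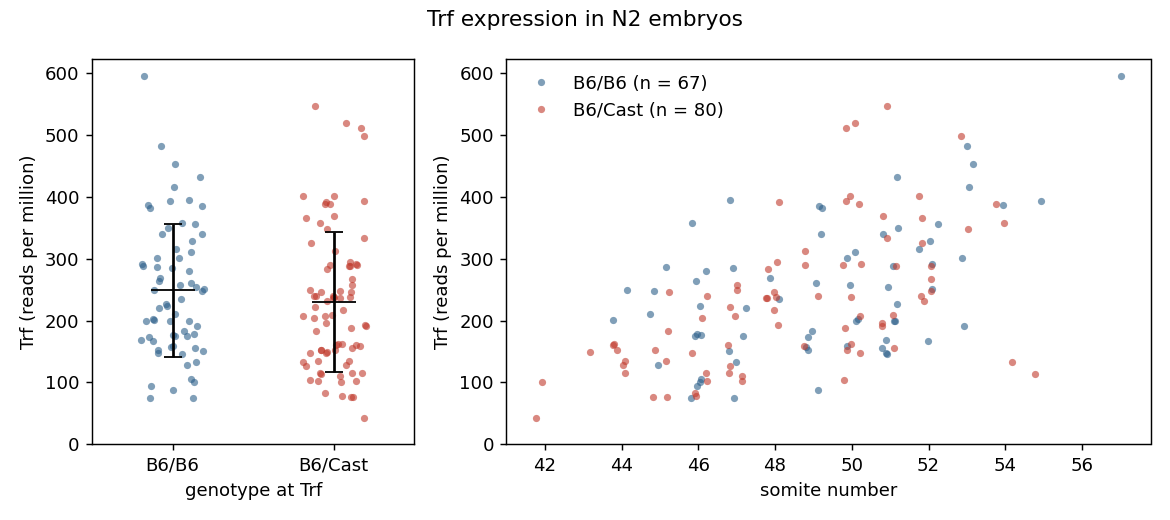
Trf in RPM (vertical axes) in 67 B6/B6 (blue) and 80 B6/Cast (red) N2 embryos, by genotype (left; points are embryos with sideways jitter, bars the mean ± SD) and against somite number (right). The groups overlap at 249 ± 108 and 230 ± 113 RPM, and the level rises with somite number in both.

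The comparison was also made within each cross. Among embryos of B6 mothers Trf averaged 227 ± 132.5 RPM in 47 B6/Cast and 260 ± 122 RPM in 38 B6/B6 embryos, and among embryos of F1 mothers 234 ± 79.2 RPM in 33 and 235 ± 84.9 RPM in 29. The fitted log2 differences were -0.09 ± 0.11 and -0.04 ± 0.11 (SE), and the test of their difference gave -0.03 ± 0.15 with an unadjusted p of 0.852 (edgeR).

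The allele votes of Trf showed both copies in use. B6/B6 embryos had 119 ± 55.5 B6 votes, scaled to library size as in RPM (SD, n = 67), and B6/Cast embryos had 51.8 ± 27.4 B6 and 51.8 ± 28.7 Cast votes on the same scale (n = 80). The B6 copy in B6/Cast embryos thus gave 43.6% of the B6 votes of B6/B6 embryos, and the Cast copy as many. These N2 values describe the groups and test nothing, since the codes were made from them.

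In the F1 embryos, whose grouping used no reads, the B6 fraction of Trf votes was 0.507 over 49820 votes. B6 votes were in excess in 13 of 16 embryos (exact sign-flip permutation test on B6 minus Cast votes scaled to library size, two-sided p = 0.0204, adjusted 0.0340 over 20 genes). The excess differed between litters. The 4 embryos of the Cast-mother litter with 41 to 43 recorded somites had fractions of 0.548 ± 0.00867 (SD), between 0.535 and 0.554, and Trf at 122 ± 23.4 RPM. The 4 of the Cast-mother litter with 46 to 48 recorded somites had 0.513 ± 0.0034 at 307 ± 16.4 RPM. The B6-mother litter with 48 to 50 somites had 0.507 ± 0.00937 (n = 5) at 366 ± 74.1 RPM, and the B6-mother litter with 58 to 63 recorded somites had 0.497 ± 0.00636 (n = 3) at 776 ± 69.4 RPM. The youngest litter did not overlap the others, but stage, litter and cross cannot be told apart in F1 embryos.

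Heterozygous N2 embryos gave fractions at stages spread over many litters. Among the 77 with at least 20 Trf votes, the B6 fraction averaged 0.557 ± 0.0503 (SD, n = 14) at 45 somites or fewer, 0.4997 ± 0.0507 (n = 58) from 46 to 52 somites and 0.466 ± 0.0757 (n = 5) at 53 or more. The last mean rests on 1 embryo with a fraction of 0.333 on 24 votes, without which the other 4 averaged 0.4993 ± 0.0170. Pooled over votes the fractions were 0.550, 0.495 and 0.495, highest in the youngest bin and alike in the later bins. Across the 77 embryos Pearson's r of the fraction with somite number was -0.439 and Spearman's rho -0.435, and r was -0.396 without the embryo of 24 votes. It was -0.353 (n = 38) and -0.505 (n = 39) within flowcells, -0.533 for B6 mothers (n = 45) and -0.286 for F1 mothers (n = 32). These are descriptions with no test, since the embryos were coded B6/Cast from the same votes. The relation was chosen after the values by stage had been seen.

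**Figure D2:**
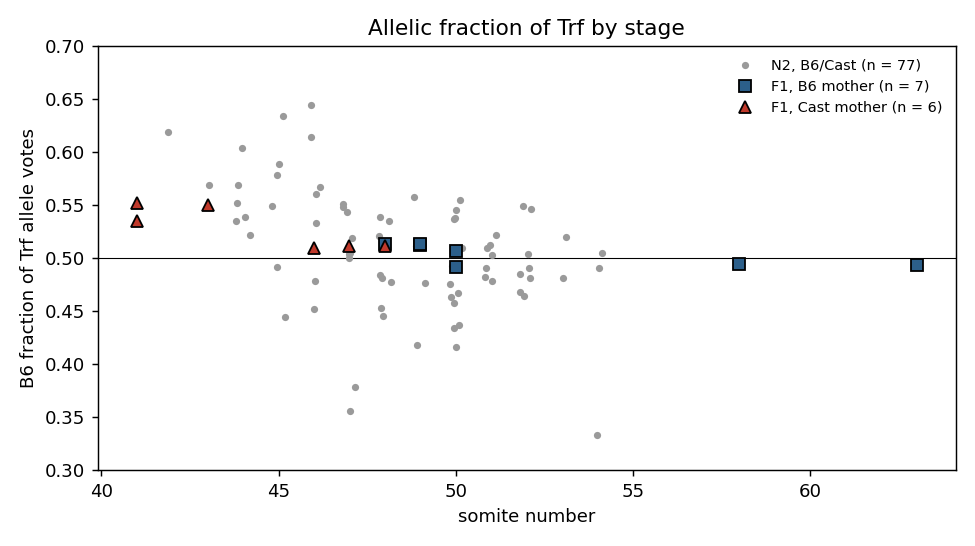
B6 fraction of Trf allele votes (vertical axis) against somite number (horizontal axis) in 77 B6/Cast N2 embryos with at least 20 votes (grey) and in the 13 F1 embryos with a recorded somite number (7 with a B6 mother, squares; 6 with a Cast mother, triangles). The N2 fraction pooled over votes is 0.550 at 45 somites or fewer and 0.495 in both later bins, and the F1 embryos run from 0.535 to 0.552 in the youngest litter down to 0.493 and 0.494 in the oldest.

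The Trf code stands for a stretch of chromosome, not for Trf alone. A block of 17 genes, from position 101824458 to 103946060, had the same code as Trf in every embryo, so no difference inside it can be assigned to one gene of the block by recombination. The median share of embryos with the Trf code was 96.7% for genes 1 to 5 Mb away, 93.5% at 5 to 10 Mb, 84.2% at 10 to 20 Mb, 83.1% at 20 to 50 Mb and 68.4% beyond 50 Mb. On other autosomes it ran from 38.2% to 60.1% with a median of 50.3%.

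Genes were tested where they averaged 5 RPM or more, and 37 of 10040 passed an adjusted p of 0.05, or 0.369%. Chromosome 9 held 35 of them, 6.04% of its 579 tested genes, with 17 higher and 18 lower in B6/Cast embryos. The other chromosomes held 2, 0.0211% of 9461. The median log2 difference of all tested genes was -0.01.

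Of the 18 table genes within 1 Mb of Trf, 12 were tested and 2 of these passed. The gene next to Trf on its distal side, 1300017J02Rik (chr9:103152852-103207412, minus strand), encodes the transferrin-family protein known as inhibitor of carbonic anhydrase. It ranged from 0.597 to 36.7 RPM with a median of 6.76 in B6/Cast embryos and from 2.97 to 52.5 RPM with a median of 11.9 in B6/B6 embryos. Its ranges overlapped, but the B6/Cast level was lower, with a log2 difference of -0.82 ± 0.11 (SE, adjusted p = 6.77e-09) or 0.566 of the B6/B6 level. Its F1 votes were few, 79 in all, of which a fraction of 0.747 were B6, with B6 in excess in 13 of 16 embryos (exact sign-flip p = 0.00262, adjusted 0.00525).

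The other tested genes of this window did not pass, with log2 differences between -0.14 and 0.20. Srprb, the nearest tested gene on the proximal side of Trf, lies on the same strand and encodes the β subunit of the signal recognition particle receptor. It had a median of 64.03 RPM in B6/Cast and 55.5 RPM in B6/B6 embryos. Its log2 difference was 0.12 ± 0.05 (unadjusted p = 0.0207, adjusted 1.00). Permuting genotypes within lanes gave an unadjusted p of 0.00153 and within litters 0.0123. In F1 embryos Cast votes exceeded B6 votes in 16 of 16, and the B6 fraction was 0.404 over 11684 votes (exact sign-flip p = 3.05e-05, adjusted 8.72e-05), the smallest p that the sign flips can give. Within flowcells the N2 difference was -0.01 ± 0.06 and 0.25 ± 0.09. Acad11, an acyl-CoA dehydrogenase, differed by 0.16 ± 0.12. Ryk, a Wnt co-receptor, differed by -0.13 ± 0.06, Rab6b by -0.14 ± 0.07 and Topbp1, a DNA replication and checkpoint protein, by 0.20 ± 0.15. Anapc13, Cep63, Amotl2 and Dnajc13 differed by between -0.06 and 0.02.

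Further along the chromosome, genes lower in B6/Cast embryos included Twf2, Pccb, Glb1, Uba7 and Rnf7. Distances from Trf are signed here, negative toward the centromere. Twf2, an actin-binding twinfilin at 3.00 Mb, had the smallest p of all genes. It ranged from 64.6 to 207 RPM with a median of 110 in B6/Cast and from 68.9 to 277 RPM with a median of 165 in B6/B6 embryos, a log2 difference of -0.61 ± 0.05 (adjusted p = 9.38e-22). Pccb, a subunit of propionyl-CoA carboxylase at -2.22 Mb, had medians of 42.1 and 54.6 RPM and a difference of -0.49 ± 0.05. Glb1, lysosomal β-galactosidase, had medians of 45.6 and 65.2 RPM and differed by -0.54 ± 0.05. Uba7, which activates the modifier ISG15, had medians of 21.1 and 29.1 RPM and differed by -0.47 ± 0.07. Rnf7, a RING subunit of cullin ubiquitin ligases, had medians of 7.82 and 12.7 RPM and differed by -0.74 ± 0.12. Its means were 6.97 and 11.3 RPM on flowcell 1 against 42.9 and 69.5 RPM on flowcell 2.

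Genes higher in B6/Cast embryos included Chst2, Ubl7 and Rps27l. Chst2, a sulfotransferase at -7.80 Mb, ranged from 31.6 to 191 RPM with a median of 96.0 in B6/Cast and from 27.1 to 121 RPM with a median of 61.5 in B6/B6 embryos. Its log2 difference was 0.65 ± 0.06 (adjusted p = 6.16e-17). Ubl7, a ubiquitin-like protein at -45.3 Mb, had medians of 55.9 and 22.5 RPM and differed by 0.96 ± 0.12. Rps27l, a ribosomal S27 paralog at -36.3 Mb, had medians of 130 and 61.5 RPM and differed by 1.13 ± 0.17. For all 10 of the chromosome 9 genes with the smallest p, 1300017J02Rik included, permuting genotypes within lanes gave 1e-05, the smallest p that 100000 permutations can give. These genes were picked by their p for the same contrast in the same embryos, so the permutation adds no separate support.

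Genes that passed lay along most of the chromosome. Their share was 16.7% of 12 genes within 1 Mb, 7.81% of 64 genes at 1 to 5 Mb, 10.8% of 65 at 5 to 10 Mb, 7.89% of 76 at 10 to 20 Mb, 5.73% of 157 at 20 to 50 Mb and 1.55% of 193 beyond 50 Mb, with 3 further genes of 12 that could not be placed. When the same linear model was fitted with each gene's own code in place of the Trf code, the own code gave the smaller p for 29 of the 35. For Ubl7 the difference grew from 1.05 ± 0.13 to 1.51 ± 0.10 and for Rps27l from 1.25 ± 0.18 to 1.62 ± 0.16 on the log2(RPM + 1) scale. With both codes in the model the Trf term left for Ubl7 was 0.22 ± 0.12 and that for Twf2 0.16 ± 0.10. For Uba7, where 96.1% of embryos had the Trf code, the Trf term stayed at -0.35 ± 0.16 and the own term was -0.06 ± 0.16.

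**Figure D3:**
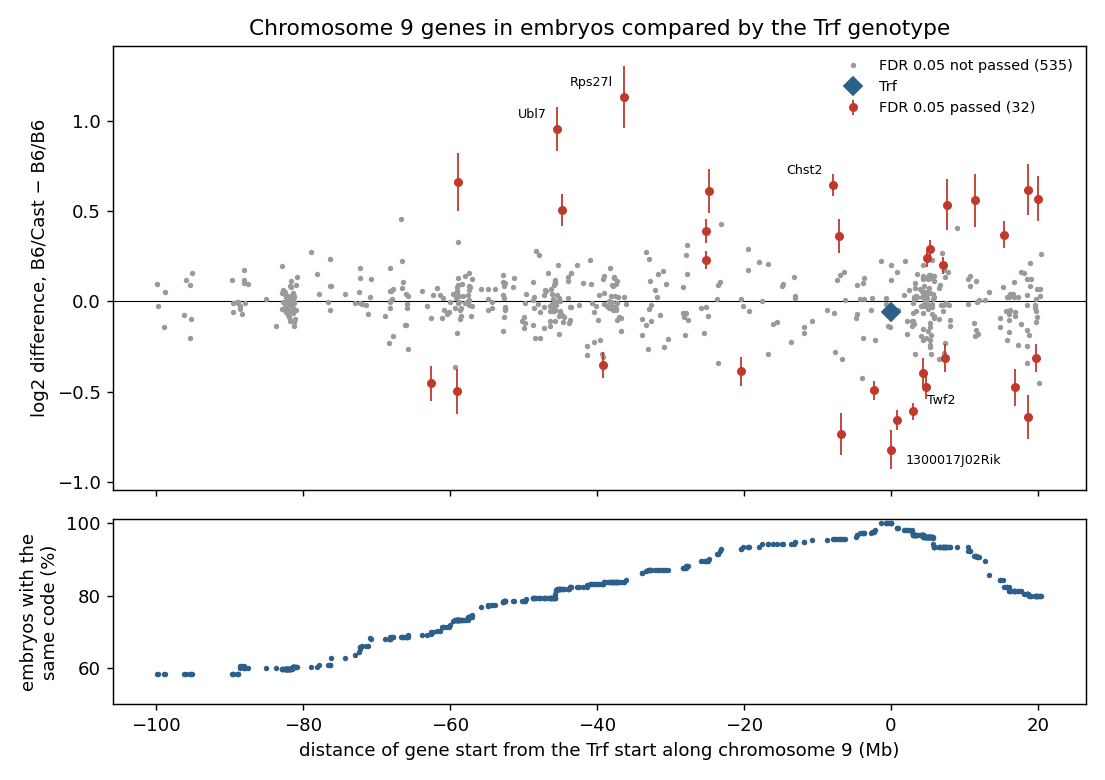
Top, log2 difference of B6/Cast from B6/B6 embryos for 567 chromosome 9 genes with a position, against the distance of the gene start from the Trf start in Mb (red, 32 genes past an adjusted p of 0.05 with SE bars; grey, the other 535 with Trf among them; blue diamond, Trf at -0.06). Bottom, percent of embryos with the same code as Trf. Genes that passed lie on both sides of 0 along much of the chromosome while agreement of the codes falls away from Trf.

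The F1 embryos give a related but different measure in other animals, the allele fraction at the gene itself within an embryo. A gene whose Cast copy gives more transcript there has a B6 fraction below 0.5. The N2 difference compares total levels between embryos grouped by the Trf code, which departs from the code of distant genes in some embryos. Of the 35 chromosome 9 genes that passed in N2, 27 had at least 20 F1 votes in each cross. For 24 of these 27, 88.9%, the F1 fraction lay on the side that matches the N2 direction, and for 23 the exact sign-flip test gave p under 0.05. Among the 464 other tested genes with such votes the direction matched for 276, 59.5%. Across all 491 genes, log2(1/(2 × B6 fraction)) in F1, the N2 difference that the fraction alone would give, and the fitted N2 difference had Spearman's rho of 0.376, and 0.502 over the 108 within 10 Mb of Trf. Genes share embryos and linked codes, so these are descriptions.

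For single genes the 2 values were near or apart. For Twf2 the F1 fraction would give -0.51 and the N2 difference was -0.61, and for Pccb the values were -0.35 and -0.49. For Chst2 the F1 fraction of 0.444 would give 0.17 where N2 showed 0.65, and for Glb1 the fraction of 0.548 would give -0.13 where N2 showed -0.54. In N2 embryos heterozygous at the gene itself, the B6 fraction was 0.302 for Chst2 and 0.534 for Glb1. Those votes also entered the codes, so the N2 fractions are descriptions. For Rps27l the F1 fraction of 0.0746 would give 2.74 where N2 showed 1.13, or 1.62 with its own code on the log2(RPM + 1) scale. Of the named genes that passed, Rnf7 alone lay on the other side, with a fraction of 0.467 over 247 votes (exact sign-flip p = 0.399) and an N2 difference of -0.74. Some named genes short of the threshold, such as Ireb2 and Rab6b, also had opposite signs. For Trf the F1 fraction would give -0.02, which lies inside the N2 interval of -0.21 to 0.09.

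**Figure D4:**
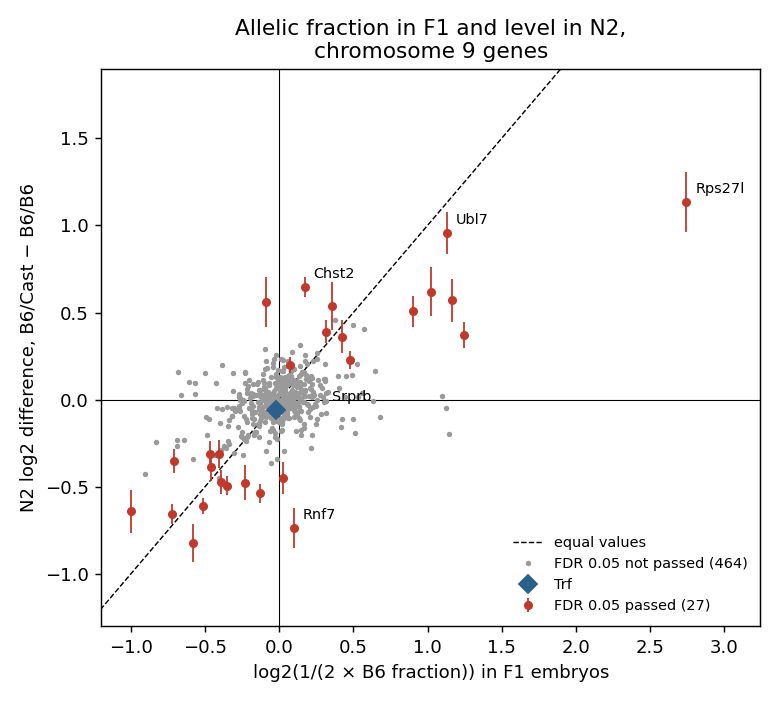
N2 log2 difference of B6/Cast from B6/B6 embryos at the Trf code (vertical axis, SE bars on genes that passed) against log2(1/(2 × B6 fraction)) in F1 embryos (horizontal axis) for 491 chromosome 9 genes (red, 27 past an adjusted p of 0.05; grey, the other 464 with Trf among them; blue diamond, Trf). The dashed line marks equal values; 24 of the 27 red genes lie in the quadrants of equal sign.

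On other chromosomes 2 genes passed, both higher in B6/Cast embryos. The first is the microRNA gene Mir703 on chromosome 5, counted here through polyadenylated 3′ ends. It ranged from 0 to 49.4 RPM with a median of 1.60 in B6/Cast and from 0 to 13.4 RPM with a median of 0 in B6/B6 embryos, and its fitted log2 difference was 2.80 ± 0.26 (adjusted p = 6.16e-17). Nearly all its reads came from flowcell 2, where the means were 17.5 RPM in B6/Cast and 1.56 RPM in B6/B6 embryos, against 0.339 and 0.174 RPM on flowcell 1.

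Mir703 shares its sequence with a gene on chromosome 9. Its hairpin of 109 bases matched mm9 chr9:78326335-78326442 at 98.2% identity. This lies in the 3′ UTR of Eef1a1, translation elongation factor 1 alpha, 79 bases from the annotated 3′ end, and 16 places in mm9 matched the hairpin over at least 100 bases. The mature miR-703 from RefSeq (GRCm38.p6) and the Eef1a1 window that aligns to it (mm9 chr9:78326394-78326414, minus strand, written 5′ to 3′ in transcript direction) are shown because they do not differ at any of 21 bases. Capitals mark the seed, bases 2 to 8.
mmu-miR-703: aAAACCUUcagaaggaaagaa
Eef1a1 window: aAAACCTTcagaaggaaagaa
Reads on Mir703 were also compared by the code at Eef1a1, which lies at -24.8 Mb from Trf and where 90.2% of embryos had the Trf code. With the Eef1a1 code alone the difference on the log2(RPM + 1) scale was 1.80 ± 0.16 (SE, 146 embryos), and with the Trf code alone 1.49 ± 0.17. With both, the Eef1a1 term was 1.56 ± 0.26 (linear model p = 1.32e-08) and the Trf term 0.29 ± 0.25 (p = 0.251). The 9 embryos that were B6/Cast at Eef1a1 and B6/B6 at Trf had a median of 0.478 RPM and the 6 with the opposite pair of codes 1.02 RPM, but 7 of the 9 were on flowcell 1, where Mir703 was near 0. On flowcell 2 the 2 embryos of the first kind had 5.11 and 13.4 RPM, and the 3 of the second ranged from 1.59 to 3.19 RPM, so recombinants with reads are few. The code at Mir703 itself gave 0.35 ± 0.22. The reads kept on Eef1a1 were also more in B6/Cast embryos at Trf, at a median of 6.07 against 4.13 RPM (log2 difference 0.61 ± 0.12, adjusted p = 0.00112). Reads with near-equal second hits had been discarded before counting. Whether the B6 and Cast copies differ in the share of reads kept was not tested, so these counts need not follow expression. Eef1a1 was singled out after these values were seen.

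The second, Prdx1 on chromosome 4, encodes the peroxide reductase peroxiredoxin 1. It ranged from 8.19 to 1180 RPM with a median of 58.9 in B6/Cast and from 7.77 to 291 RPM with a median of 42.3 in B6/B6 embryos. The fitted log2 difference was 0.90 ± 0.22 (adjusted p = 0.0256), and permuting genotypes within lanes gave p = 0.00647. It failed the threshold under 8 of 15 other settings, among them embryos with at least 1000000 reads (adjusted p = 0.159) and either flowcell alone, where it was 1.43 ± 0.39 and 0.51 ± 0.22. On the log2(RPM + 1) scale the difference was 0.50 ± 0.18, and 0.47 ± 0.18 without the highest embryo.

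The 4 genes next in order of p on other chromosomes did not pass. Vma21, an assembly factor of the vacuolar ATPase on the X chromosome, differed by 0.27 ± 0.07 (adjusted p = 0.0684), Mcm4, a subunit of the replicative helicase, by 0.45 ± 0.12 (0.0892), Myadm, a membrane protein, by 0.44 ± 0.12 (0.113) and Cdc7, the kinase that starts replication origins, by 0.54 ± 0.15 (0.131). Adding each autosomal gene's own code left the differences of Mcm4, Myadm and Cdc7 at 0.28 ± 0.13, 0.46 ± 0.12 and 0.36 ± 0.13 on the log2(RPM + 1) scale.

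No iron gene passed. Of 58 iron genes in the tables, 35 were tested and none passed by edgeR or DESeq2, with 1 at an unadjusted p under 0.05 by either tool. This 1 is 2.86% of the list, against 3.11% of all tested genes at that p and 0.369% that passed. The median log2 difference of the 35 was -0.04, against -0.01 for all tested genes. Tfrc, the receptor that takes in iron-loaded transferrin, ranged from 0 to 97.5 RPM with a median of 4.39 in B6/Cast and from 0.358 to 101.1 RPM with a median of 4.91 in B6/B6 embryos. Its log2 difference was -0.05 ± 0.12. Its spread followed the flowcell, with means of 3.01 and 3.16 RPM on flowcell 1 against 37.8 and 35.4 RPM on flowcell 2.

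Downstream of the receptor, Slc11a2, the endosomal iron transporter DMT1, had medians of 40.6 and 41.8 RPM and a difference of -0.08 ± 0.09. On the log2(RPM + 1) scale the linear model gave -0.08 ± 0.04 (unadjusted p = 0.0786). Permuting genotypes gave unadjusted p of 0.0787 within lanes and 0.0334 within litters. Steap3, the endosomal ferrireductase, differed by -0.01 ± 0.10. Fth1, the ferritin heavy chain that stores iron, had medians of 1503 and 1598 RPM and differed by 0.01 ± 0.09. Aco1, the iron-regulatory protein IRP1, differed by -0.01 ± 0.15. Ireb2, the iron-regulatory protein IRP2 on chromosome 9, differed by -0.20 ± 0.16. Ltf, lactotransferrin, another transferrin-family gene on chromosome 9, had medians of 4.67 and 4.74 RPM and differed by 0.16 ± 0.19. Slc25a37, mitoferrin 1, which brings iron into mitochondria of red cell precursors, was the 1 iron gene with an unadjusted p under 0.05. It had medians of 18.6 and 20.045 RPM and a difference of -0.22 ± 0.11 (unadjusted p = 0.0388, adjusted 1.00, permuted within lanes 0.0495). Ftl1, Slc40a1 (ferroportin) and Hfe were below 5 RPM on average and were not tested, with maxima of 27.9, 12.6 and 4.41 RPM over all embryos.

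Among heme genes 1 of 19 tested passed, against 0.369% of all tested genes and 6.04% of those on chromosome 9, and none of those described here did. Alas1 and Alas2, the housekeeping and erythroid forms of the first heme enzyme, differed by -0.01 ± 0.07 and -0.06 ± 0.10, and Fech, which inserts the iron, by -0.08 ± 0.07. Hmox1, heme oxygenase 1, was below 5 RPM on average.

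Of 62 erythroid genes in the tables, 53 were tested and none passed by edgeR or DESeq2, with 3 at an unadjusted p under 0.05 by either tool, 5.66% against 3.11% of all tested genes. Their median log2 difference was -0.05, with 42 of 53 below 0, against 53.8% of all tested genes. Entries that hold the same reads, named below, are counted separately in this, and genes measured in the same embryos are not independent. The embryonic globins were the most abundant: Hbb-y had medians of 52058 RPM in B6/Cast and 53445 RPM in B6/B6 embryos and a difference of -0.09 ± 0.10, Hba-x 16467 and 15107 RPM and -0.0048 ± 0.11, and Hbb-bh1 4415 and 4558 RPM and -0.12 ± 0.13. The adult β-globin Hbb-b2, which shares its reads with Hbb-b1, had medians of 2703 and 3231 RPM and differed by -0.14 ± 0.12, and Beta-s, an adult β-globin entry, by -0.11 ± 0.17. At these β-globin genes on chromosome 7, 58.4% of embryos had the Trf code. On the log2(RPM + 1) scale the Trf code alone gave -0.08 for Hbb-y, -0.09 for Hbb-bh1, -0.18 for Hbb-b2 and -0.10 for Beta-s. With each gene's own code added, the Trf terms were -0.09 ± 0.09 for Hbb-y and 0.0019 ± 0.12 for Hbb-bh1. Those for Hbb-b2 and Beta-s were -0.19 ± 0.12 and -0.28 ± 0.17. Hba-a1 and Hba-a2 held the same reads and differed by -0.18 ± 0.17. Hbq1b, a theta globin, had medians of 8.65 and 11.9 RPM and a difference of -0.34 ± 0.14 (unadjusted p = 0.0165, adjusted 1.00).

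The regulators of red cell genes Gata1 and Klf1 differed by -0.13 ± 0.17 and -0.07 ± 0.08, the erythropoietin receptor Epor by -0.06 ± 0.08 and the anion exchanger Slc4a1 by -0.15 ± 0.09. Epb4.9, dematin of the membrane skeleton, had medians of 12.1 and 10.3 RPM and a difference of 0.23 ± 0.09 (unadjusted p = 0.0106). Fbxo7, a ubiquitin ligase subunit expressed in red cell precursors, had medians of 47.4 and 52.3 RPM and differed by -0.15 ± 0.07 (unadjusted p = 0.0284). Over the iron, heme and erythroid genes of the other chromosomes, 0 of 96 tested passed, and 4, 4.17%, had an unadjusted p under 0.05 by edgeR and by DESeq2, against 2.11% of all tested genes there.

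**Figure D5:**
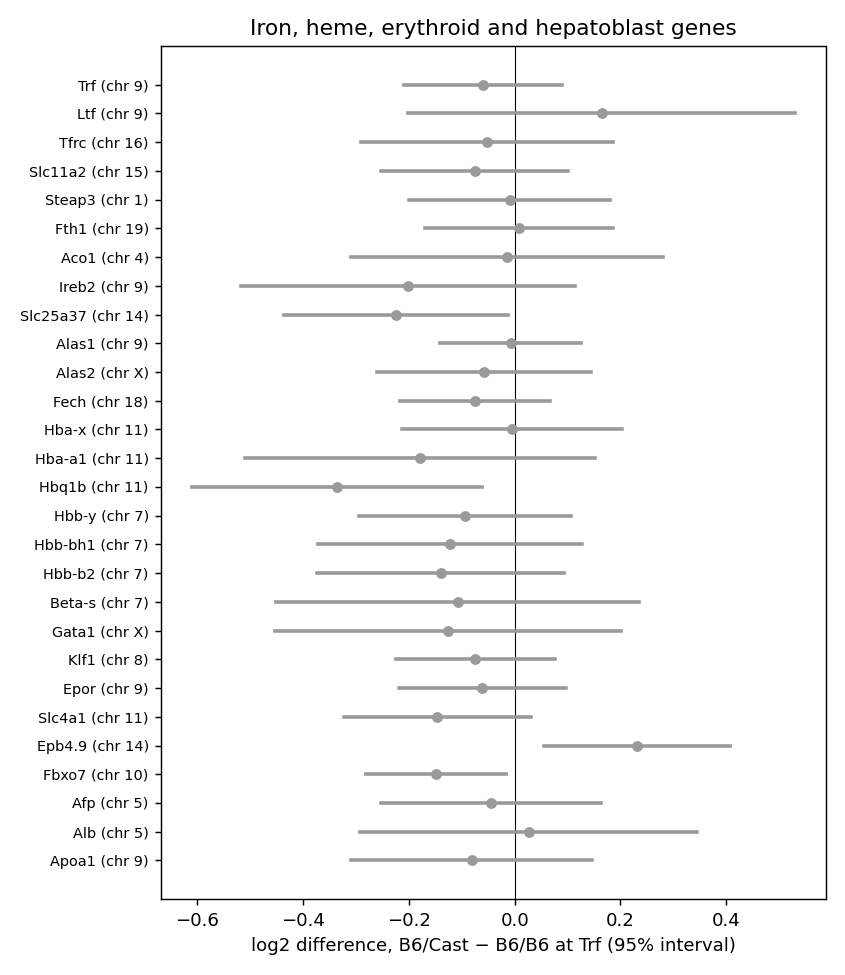
Log2 difference of B6/Cast from B6/B6 embryos at Trf with its 95% interval (horizontal axis) for Trf and the named iron, heme, erythroid and hepatoblast genes with their chromosomes. None of the genes drawn passed an adjusted p of 0.05, and the intervals of most include 0.

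Of hepatoblast and visceral endoderm genes, made in the same tissues as Trf, none of 18 tested passed by edgeR, with 0 at an unadjusted p under 0.05, and their median log2 difference was -0.0034. Afp, α-fetoprotein, had medians of 277 and 299 RPM and a difference of -0.04 ± 0.11, Alb, albumin, 67.1 and 65.03 RPM and 0.03 ± 0.16, and Apoa1, apolipoprotein A-I on chromosome 9, 181 and 209 RPM and -0.08 ± 0.12. Of 11 macrophage genes tested none passed, with 0 at an unadjusted p under 0.05, a median of -0.06 and 10 of 11 below 0. Of all tested genes 0.369% passed, 3.11% had an unadjusted p under 0.05 and 53.8% lay below 0. Counts of 0 in lists of 18 and 11 genes are therefore near the shares of all genes. None of the 16 trophoblast genes in the tables reached 5 RPM.

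Fitted within crosses, 11 of 10066 genes passed among embryos of B6 mothers (0.109%) and 9 of 9998 among embryos of F1 mothers (0.09%). Twf2 differed by -0.61 ± 0.07 and -0.62 ± 0.07 in the 2 crosses and Chst2 by 0.73 ± 0.09 and 0.53 ± 0.08. 1300017J02Rik differed by -0.92 ± 0.15 and -0.60 ± 0.16, the latter with an adjusted p of 0.242, and the test of the difference between crosses gave 0.31 ± 0.22 with an unadjusted p of 0.165. No gene passed the edgeR test of an interaction of genotype with the mother (0% of 10040, with 142 at an unadjusted p under 0.05). None passed that of an interaction with somite number (0% of 10040, with 681 at an unadjusted p under 0.05, or 6.78%).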

How the data were processed

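Whole-embryo 3SEQ libraries of N2 and F1 embryos were compared. The authors mapped reads with Bowtie2 to the mm9 genome and to a Cast version of it, discarded reads with near-equal second hits, and deposited raw read counts per RefSeq gene. They also deposited B6 and Cast allele votes, which are estimated counts (a read covering several SNPs is split over them), and genotype codes inferred from those votes. A code of 0.0, which the sources used here do not explain, was read as not called. F1 columns join the 2 sequencing runs of an embryo. When comparing expression between genotypes, the authors also left out retrotransposed genes and genes that lost many reads to the second-hit filter. That step was not applied here. RPM here was computed from the counts.

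Counts were tested with edgeR 4.0.16 (glmQLFit and glmQLFTest, TMM factors, lane and somite number as covariates, genes averaging 5 RPM or more, Benjamini-Hochberg over all tested genes), in R 4.3.3. Each SE is the log2 difference divided by the t quantile of its p. Genotypes were permuted 100000 times within lanes on residuals of log2(RPM + 1), all tests two-sided. F1 votes were tested over all 65536 sign flips. The fit was tested on simulated counts. Positions are from GENCODE vM1 on mm9, the build of the files. DESeq2 1.42.0, other filters, covariates and subsets were tried as alternatives. The fits without the embryo with Cast votes at Trf or without a gene's highest embryo, the Eef1a1 code, and the relation of the Trf fraction to somite number, with and without 1 embryo of few votes, were chosen after seeing the data.

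Depth ran from 245220 to 5370322 reads per N2 embryo and from 15703888 to 38234229 per F1 embryo, so a gene at 5 RPM has about 11.5 reads at the median N2 depth. The 8 N2 samples without group labels and 6 labelled embryos without codes were not analysed here, and 7 genotyped embryos without a somite number enter only 1 alternative. P-values treat embryos as separate samples though littermates share a mother. The named genes were Trf, all tested genes within 1 Mb, the 10 on chromosome 9 and 6 elsewhere with the smallest p, a fixed set of iron, heme, erythroid and hepatoblast genes, and members of those lists with an unadjusted p under 0.05. Some genes that meet this rule are not reported here. The sources used here do not state whether reads were counted by strand. The members and lists were chosen with earlier results of these data known.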

Additional observations from a re-analysis of the deposited data

Results flagged for a closer look

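Among 46 groups of 8 F1 embryos that were examined for one embryo far from the rest, 3 had one, about the share of 1 in 20 that chance gives. In embryos of B6 mothers the B6 fraction of Acad11 was 0 in one embryo and at least 0.355 in the others, on 457 votes over all 16 embryos. In the same cross the B6 fraction of Rps27l was 0.0998 in one embryo and at most 0.0528 in the others. Among embryos of Cast mothers Prdx1 stood at 402 RPM in one embryo and at most 83.4 RPM in the others, and among N2 embryos it also ran to high values, up to 1180 RPM.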

How the results depend on the processing

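Trf stayed below the B6/B6 level and short of the threshold under all 15 settings set out at the start, with log2 differences from -0.14 (lane only, all genotyped embryos) to -0.01 (flowcell 2 alone), and leaving out each lane in turn gave -0.11 to -0.013. The 35 genes that passed on chromosome 9 became 17 without covariates, 11 on flowcell 2 alone, 10 with B6 mothers alone and 9 with F1 mothers alone, on 77, 85 and 62 embryos for the last 3. The 2 genes on other chromosomes became 4 with a mean of at least 1 RPM, 9 without a filter, 4 with lane only, and 1 each with at least 1000000 reads, one code within 10 Mb of Trf, flowcell 2 alone, B6 mothers alone and a rank-sum test on residuals. With F1 mothers alone edgeR called 0 of 9426 there, with 263 at an unadjusted p under 0.05. DESeq2 called 41 genes in all, including all 37 of edgeR. Beyond these, 24 alternatives for single genes lost a call, 4 gained one and 939 changed neither call nor the sign of a called value. The 4 were Mcm4 and Cdc7 with lane only, Vma21 with litter in place of lane, and Slc11a2 by its unadjusted p in the permutation within litters. Sign changes of values short of the threshold in both fits were not counted as reversals. Why Prdx1 lost its call was not tested. No paired analysis was possible because replicate numbers follow accession order, but 23 of 29 litters held both genotypes, and with litter in place of lane 32 genes passed, 31 of them among the 37, with Trf at -0.02 ± 0.08. Expression below about 5 RPM rests on too few reads per embryo for these comparisons.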

Other observations

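The B6/B6 embryo with Cast votes at Trf had them at few other genes. Over the 3164 genes that were coded B6/B6 and had votes in this embryo, 0.607% of votes were Cast. The most Cast votes fell on Afp, 25.2 of 63.7 votes (39.5%, against 0.131% in the other embryos coded B6/B6 there), and then on Trf, 22 of 108 (20.4% against 0.0839%). Apom had 8 of 54 (14.8%) and Kifc1 8 of 11.5 (69.5%), while Hbb-y had 9 of 970 (0.928%). Afp, Trf and Apom are secreted-protein genes of visceral endoderm and hepatoblasts, and the labels describe the embryos as freed of extra-embryonic material. The genes were singled out after their values were seen. In this embryo Trf stood at 301 RPM and Afp at 159 RPM, and 5 of the 11 embryos of its litter in the comparison were B6/Cast at Trf.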
